A study of Homo sapiens with 6 samples.

Results

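The genes described here are 29 genes of cholesterol synthesis, sterol transport and the control of both by sterol regulatory element-binding proteins (SREBPs). They were chosen by name from a table of 60664 genes, and each of them had a row. The table came from 67R cells, a subline of NCI-H1975 lung adenocarcinoma cells that had acquired resistance to ASK120067, an inhibitor of EGFR, during growth in rising doses of the drug. All cells were 67R cells grown in RPMI medium with serum and transfected with siRNA by a lipid reagent. In 3 libraries the cells had received a negative control siRNA (siNC), and in 3 libraries an siRNA against BCAT1 (siBCAT1), the cytosolic branched-chain amino acid transaminase. The comparison asks how knockdown of BCAT1 changed transcript levels in resistant cells. The study's methods list a pair of BCAT1 siRNAs and give the name siBCAT1, which the labels use, to the second of them. 67R is a single derived line, and nothing in the labels says that the libraries came from separate cultures, so p-values measure only the spread between these libraries.

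Cholesterol is built from acetyl-CoA through mevalonate and the isoprenoid farnesyl pyrophosphate, which is the branch point between sterols, through squalene, and the longer isoprenoids that anchor proteins to membranes. Lanosterol, the first sterol, is then demethylated, reduced and isomerised in the endoplasmic reticulum until cholesterol is formed. The SREBP transcription factors are held in that membrane by SCAP and INSIG proteins when sterol is plentiful and are released by proteolysis when it is scarce, and they activate genes of sterol synthesis and uptake. Sterol that is in excess activates the LXR receptors, whose targets export it from the cell or limit its uptake.

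BCAT1 itself checked the labels. Its level was 42.7, 42.18 and 29.76 TPM in siNC replicates 1, 2 and 3 and 8.78, 7.1 and 8.0 TPM in siBCAT1 replicates 1, 2 and 3. TPM divides a transcript's reads by its length and by the total of the library, so levels of different genes can be set beside each other. BCAT1 fell by 2.12 on the log2 scale (SE 0.15, limma with Benjamini-Hochberg adjustment, adjusted p = 0.000272), and the groups did not overlap. The libraries listed between 23152 and 25043 genes above 0. TPM keeps no read total, so the depth of each library is unknown and no counting error can be given. Of 6 epithelial markers, 4 stood at 1 TPM or more in every library, led by the keratins KRT7, KRT8 and KRT18. The sum of the 6 was lower with siBCAT1, at 1647 to 1935 TPM against 2546 to 2948 TPM with siNC. CDH1 was also lower, at 0.85 to 4.3 TPM against 12.46 to 28.83 TPM. EPCAM went the other way, at 1.96 to 2.61 TPM with siBCAT1 against 0.91 to 1.55 TPM with siNC. The 4 markers of alveolar epithelium summed to at most 0.42 TPM, and SFTPC was listed at 0 in all 6 libraries, so the lung origin of the line did not show in these markers. The 4 leukocyte markers summed to 29.87 to 38.55 TPM with siNC and 53.27 to 60.87 TPM with siBCAT1, nearly all of it CD68, while CD3E was listed at 0 throughout. The 4 fibroblast markers summed to 252.5 to 273.5 TPM with siNC and 188.9 to 244.5 TPM with siBCAT1. Most of this was COL1A2, at 235.8 to 249.5 TPM and 177.5 to 233.6 TPM. COL1A1 and PDGFRB also stood at 1 TPM or more in every library, while DCN was at 0. The 3 endothelial markers summed to at most 2.61 TPM. The part of these shifts in the results was not tested.

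After BCAT1 knockdown, 10 of the 29 genes passed the test, and the 2 directions fell at different steps of the pathway. Those called higher were 10.3% of the 29, against 16.7% of all genes tested, and those called lower 24.1%, against 10.4%. The lower calls other than those of HSD17B7 and ABCA1 were each lost in some fits with 1 library left out. The 3 genes that rose were PMVK, FDPS and GGPS1, which make mevalonate pyrophosphate, farnesyl pyrophosphate and geranylgeranyl pyrophosphate. The 7 genes that fell were 5 enzymes that act on sterols (TM7SF2, MSMO1, NSDHL, HSD17B7 and SC5D) and the sterol carriers STARD4 and ABCA1. The regulators SREBF1, SREBF2, SCAP and INSIG1 and the early targets HMGCS1 and SQLE did not pass the test. Expression was compared on log2(TPM + 1) over the 14286 genes that averaged 1 TPM or more, with limma's moderated test and Benjamini-Hochberg adjustment at a threshold of 0.05, and all 29 genes passed that filter in the mean of each group. On this scale the fold change of a weakly expressed gene is understated.

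These counts stand against a broad response. Of all genes tested, 16.7% were called higher and 10.4% lower, against 3 of 29 (10.3%) and 7 of 29 (24.1%) of the cholesterol genes. The lean of all genes to higher calls, 2382 against 1483, was weaker under median-ratio scaling (1957 against 1802) and quantile normalization (2042 against 1865), under both of which 3 of the 29 were called higher and 8 lower. The groups did not overlap, in the higher direction, for 26.1% of all genes tested and 3 of the 29, and in the lower direction for 18.0% and 8 of the 29. The median log2 fold change was -0.11 over the 29 genes and 0.04 over all genes tested, and 22 of the 29 lay below 0. In a bulk sample, fewer cells of one kind and less transcript per cell cannot be told apart. The rises of PMVK, FDPS and GGPS1 and the falls of HSD17B7 and ABCA1 passed the test in each of the 15 other fits. By contrast, the count of the 29 genes called lower was smaller in most fits with 1 library left out. It was 2, HSD17B7 and ABCA1, without siNC replicate 1, without siBCAT1 replicate 2 or without siBCAT1 replicate 3, and 3 without siNC replicate 3, with STARD4 as the third. Lower calls over all genes tested also dropped in these fits, from 1483 to 855, 959, 986 and 1038 in the order named. With a minimum log2 fold change of 0.5 added to the call, PMVK alone of the 3 rises was left.

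**Figure D1:**
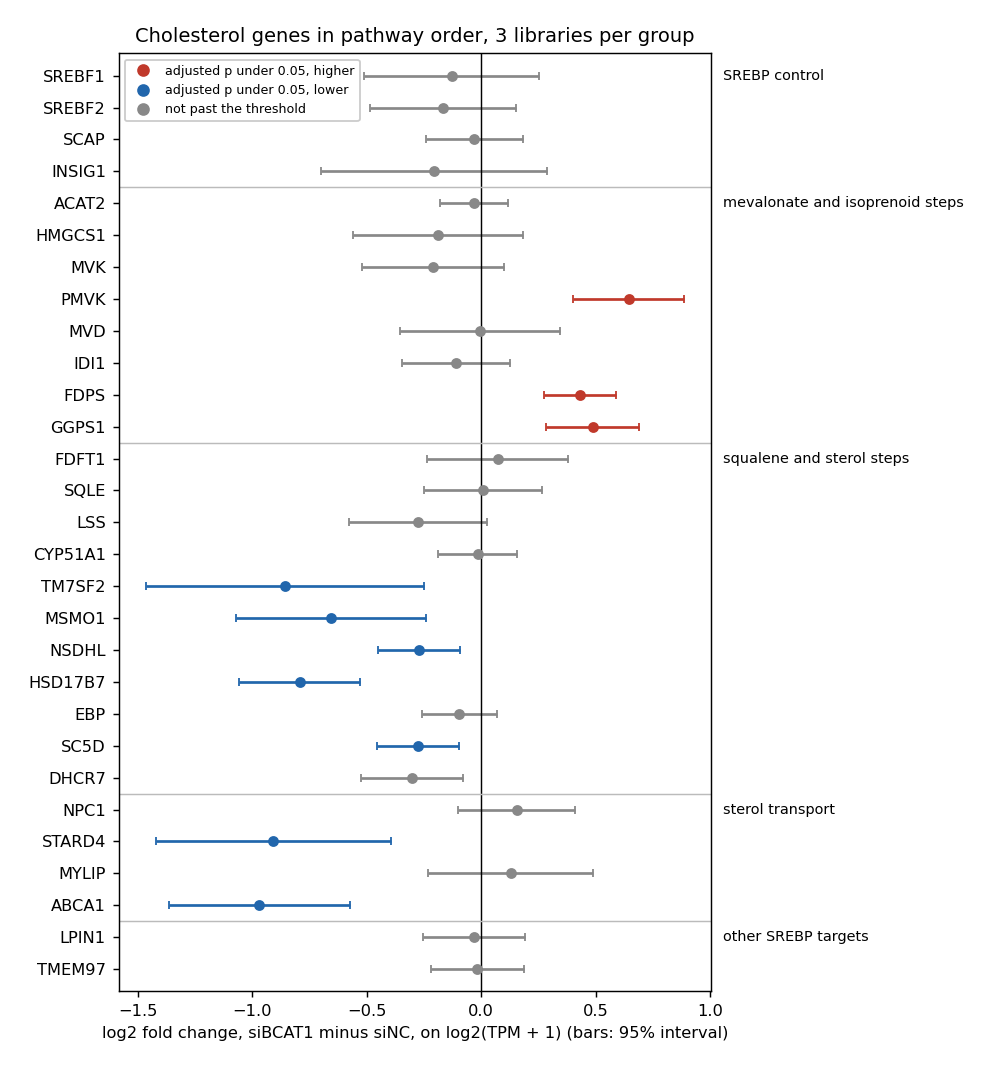
Log2 fold change (siBCAT1 minus siNC, on log2(TPM + 1)) of the 29 genes in pathway order, with 95% intervals from limma and 3 libraries per group. The 3 genes in red (PMVK, FDPS, GGPS1) lie in the mevalonate and isoprenoid steps, the 7 in blue lie in the sterol steps and in transport, and the 19 in grey were not past the threshold.

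The 4 genes of SREBP control were measured at moderate levels and none passed the test, with a median log2 fold change of -0.15. SREBF1 (17:17810399-17837002, minus strand, GRCh38) encodes SREBP-1, the form best known for fatty acid genes. Its level was 95.59, 68.43 and 73.78 TPM in siNC and 79.49, 79.67 and 58.12 TPM in siBCAT1, and the groups overlapped (log2 fold change -0.13, 95% interval -0.51 to 0.25). SREBF2 (22:41833079-41907308, plus strand), which encodes SREBP-2, the main activator of cholesterol genes, was at 81.02, 58.67 and 73.12 TPM in siNC and 71.85, 57.96 and 58.67 TPM in siBCAT1. Its difference of -0.17 had an interval of -0.49 to 0.15, so neither a modest fall nor a small rise could be told from no change with 3 libraries a group. SCAP, the escort that carries SREBPs to the Golgi, averaged 30.7 ± 2.03 TPM (SD, n = 3) in siNC and 30.1 ± 2.45 TPM in siBCAT1. INSIG1, which retains SCAP in the endoplasmic reticulum and is itself an SREBP target, averaged 28.8 ± 5.73 and 25.0 ± 6.12 TPM. INSIG1 had the widest interval of the 4, from -0.70 to 0.29, and its lowest value in each group was in replicate 2. These are transcript levels, and the cleavage that activates SREBPs was not measured.

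The mevalonate and isoprenoid steps held all 3 genes that rose, of 8 measured (37.5%, against 16.7% of all genes tested), and none that fell. The other 5 had log2 fold changes below 0 that did not pass the test, and the median of the 8 was -0.02. ACAT2, the cytosolic thiolase that starts the route, averaged 44.6 ± 1.82 TPM in siNC and 43.6 ± 0.521 TPM in siBCAT1, with the smallest SE of the 29 log2 fold changes (log2 fold change -0.03, SE 0.06, 95% interval -0.18 to 0.12). HMGCS1, which forms HMG-CoA and is a standard readout of SREBP-2, was at 84.47, 82.4 and 66.62 TPM in siNC and 84.9, 64.92 and 56.46 TPM in siBCAT1. Its groups overlapped, and the interval of its log2 fold change ran from -0.56 to 0.18. MVK, mevalonate kinase, averaged 15.0 ± 2.37 and 12.7 ± 1.06 TPM, with an interval of -0.52 to 0.10.

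PMVK (1:154924734-154936991, minus strand), phosphomevalonate kinase, was at 22.18, 28.73 and 24.84 TPM in siNC and 37.86, 40.22 and 41.5 TPM in siBCAT1. Every siBCAT1 library stood above every siNC library, and the mean rose by 57.9%, from 25.3 ± 3.29 to 39.9 ± 1.85 TPM (SD, n = 3). The log2 fold change was 0.64 (SE 0.10, limma with Benjamini-Hochberg adjustment, adjusted p = 0.00464). MVD, which decarboxylates mevalonate pyrophosphate, averaged 36.1 ± 6.80 and 35.7 ± 3.81 TPM, and IDI1, the isomerase that makes dimethylallyl pyrophosphate, averaged 47.5 ± 2.80 and 44.1 ± 5.56 TPM. Neither passed the test, and both had overlapping groups.

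FDPS (1:155308748-155320666, plus strand), farnesyl pyrophosphate synthase and the target of bisphosphonate drugs, had the highest level of the 29 genes. It was at 213.5, 189.7 and 210.0 TPM in siNC and 292.8, 261.7 and 273.7 TPM in siBCAT1. Every siBCAT1 library stood well above every siNC library, and the mean rose by 35.1% (log2 fold change 0.43, SE 0.07, limma with Benjamini-Hochberg adjustment, adjusted p = 0.00416). The annotation lists 8 pseudogene copies of FDPS, and none of them was above 0.39 TPM in any library. GGPS1 (1:235327350-235344532, plus strand), which lengthens farnesyl to geranylgeranyl pyrophosphate, was at 15.27, 17.68 and 17.04 TPM in siNC and 23.89, 22.61 and 24.64 TPM in siBCAT1. Its groups did not overlap either, and the mean rose by 42.3% (log2 fold change 0.49, SE 0.09, limma with Benjamini-Hochberg adjustment, adjusted p = 0.00701). GGPS1 lies on the same strand as part of TBCE, a tubulin chaperone gene, which went the other way (log2 fold change -0.32), and how reads of such overlaps were divided is not stated. The summed level of the 8 genes was 483.2, 448.2 and 470.5 TPM in siNC and 586.6, 517.7 and 529.2 TPM in siBCAT1. This difference was mostly that of FDPS, since the other 7 genes summed to 269.8, 258.5 and 260.5 TPM in siNC and 293.8, 256.0 and 255.5 TPM in siBCAT1, with overlapping groups.

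**Figure D2:**
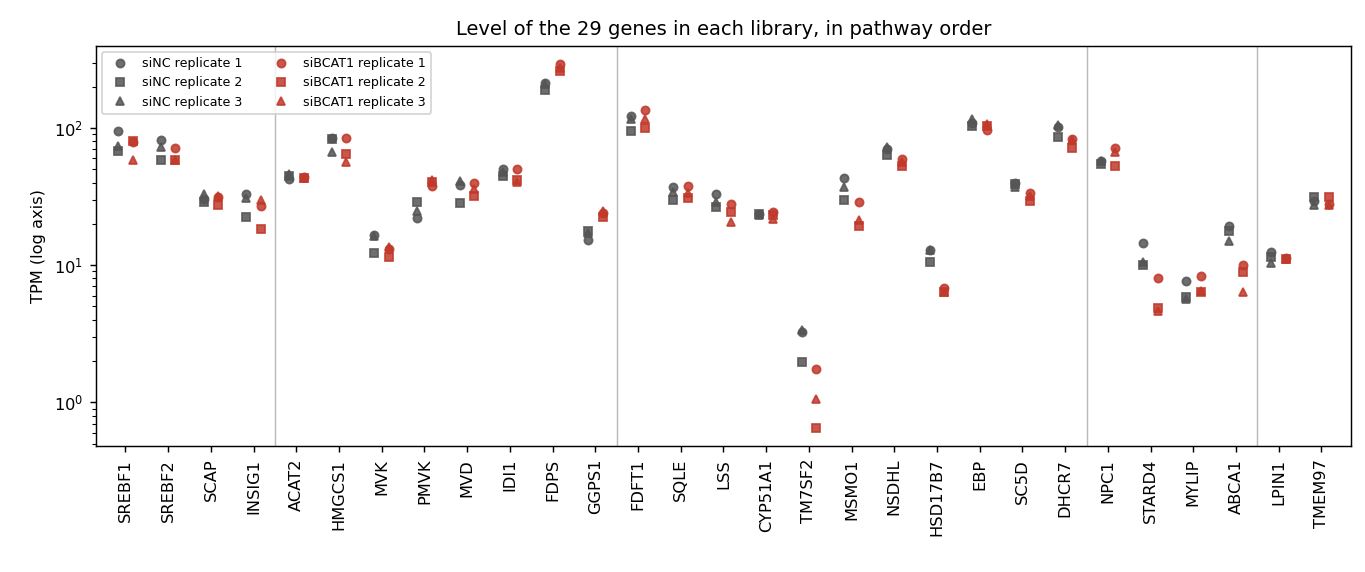
Level of the 29 genes in TPM (log axis) in each of the 6 libraries, in pathway order, with grey symbols for siNC, red for siBCAT1 and a symbol shape for each replicate number. FDPS stood highest in every library, and TM7SF2 was the lowest of the 29, at 0.65 to 3.37 TPM.

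None of the 3 enzymes from squalene to lanosterol passed the test. FDFT1, squalene synthase, which draws farnesyl pyrophosphate into the sterol branch, averaged 111 ± 14.2 TPM in siNC and 117 ± 17.5 TPM in siBCAT1 (log2 fold change 0.07, 95% interval -0.24 to 0.38). The sign of this difference turned under quantile normalization and under a correction for GC content and length. SQLE, squalene epoxidase, a rate-limiting enzyme, was at 37.43, 29.98 and 34.24 TPM in siNC and 37.52, 30.77 and 33.83 TPM in siBCAT1. Its 2 groups covered nearly the same range, and the interval of its log2 fold change ran from -0.25 to 0.26. LSS, which closes squalene epoxide into lanosterol, was at 33.18, 26.47 and 29.02 TPM in siNC and 27.78, 24.38 and 20.68 TPM in siBCAT1. Its groups overlapped and its log2 fold change of -0.28 did not pass the test (limma with Benjamini-Hochberg adjustment, adjusted p = 0.155).

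Of the 8 enzymes that act on sterols after ring closure, 5 fell, none rose and all 8 had log2 fold changes below 0, with a median of -0.29. The falls were 62.5% of this subset, against 10.4% of all genes tested. This subset was picked after the values were seen, so its count is a description. Its summed level was 401.3, 358.4 and 406.4 TPM in siNC and 333.5, 306.9 and 327.9 TPM in siBCAT1, and the groups did not overlap. CYP51A1, the lanosterol demethylase inhibited by azole drugs and the first of these enzymes, had the smallest difference of the 8. It was at 23.4, 23.52 and 23.17 TPM in siNC and 24.2, 23.28 and 21.87 TPM in siBCAT1 (log2 fold change -0.02, 95% interval -0.19 to 0.16).

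HSD17B7 (1:162790702-162812817, plus strand), the 3-ketosteroid reductase of C4 demethylation, had the smallest adjusted p of the 29 genes. It was at 12.95, 10.46 and 12.82 TPM in siNC and 6.84, 6.35 and 6.37 TPM in siBCAT1. The lowest siNC library stood well above the highest siBCAT1 library, and the mean fell by 46.0% (log2 fold change -0.79, SE 0.11, limma with Benjamini-Hochberg adjustment, adjusted p = 0.0029). Its pseudogene HSD17B7P2 was at 0.78 to 1.94 TPM in siNC and 0.44 to 1.0 TPM in siBCAT1, and HSD17B7P1 was listed at 0. MSMO1 (4:165327623-165343160, plus strand), the C4-methyl oxidase that acts before it, was at 43.05, 30.04 and 37.0 TPM in siNC and 28.64, 19.14 and 21.25 TPM in siBCAT1. The groups were separated by little, since siNC replicate 2 and siBCAT1 replicate 1 were close, while the mean fell by 37.3% (log2 fold change -0.66, SE 0.18, limma with Benjamini-Hochberg adjustment, adjusted p = 0.032). NSDHL (X:152830967-152869729, plus strand), the dehydrogenase of the same C4 complex, was at 69.98, 63.48 and 72.12 TPM in siNC and 59.57, 53.13 and 56.82 TPM in siBCAT1. Its fall of 0.27 on the log2 scale was small beside that of HSD17B7 (SE 0.08, limma with Benjamini-Hochberg adjustment, adjusted p = 0.0361). For all 3 enzymes of C4 demethylation the siBCAT1 values thus lay below the siNC values without overlap. Such a separation was seen for 18.0% of all genes tested. The 3 enzymes belong to the subset picked after the values were seen, so their count too is a description. ERG28, known as a scaffold of that complex and not one of the 29, also fell, from 52.9 to 34.8 TPM (log2 fold change -0.58, limma with Benjamini-Hochberg adjustment, adjusted p = 0.00415), and LBR, a sterol C14 reductase from the same list of partners, averaged 50.7 ± 6.35 and 48.7 ± 1.77 TPM and did not pass the test (log2 fold change -0.05, 95% interval -0.28 to 0.18). Both were named after their values were seen.

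TM7SF2 (11:65111845-65116384, plus strand), a sterol C14 reductase, was the weakest of the 29 genes. It was at 3.26, 1.98 and 3.37 TPM in siNC and 1.75, 0.65 and 1.05 TPM in siBCAT1, and the groups did not overlap. Its mean fell by 59.9% while the log2 fold change on the scale with a pseudocount was -0.86 (SE 0.26, limma with Benjamini-Hochberg adjustment, adjusted p = 0.0462). TM7SF2 overlaps VPS51 on the same strand, a gene at 109 to 135 TPM in all 6 libraries that did not pass the test. SC5D (11:121292453-121308694, plus strand), the C5 desaturase, was at 39.71, 39.34 and 36.97 TPM in siNC and 33.55, 29.57 and 32.14 TPM in siBCAT1. This was a small but separated difference, with a fall of the mean by 17.9% (log2 fold change -0.28, SE 0.08, limma with Benjamini-Hochberg adjustment, adjusted p = 0.0339). DHCR7 (11:71428193-71452868, minus strand), which reduces 7-dehydrocholesterol to cholesterol and is lost in Smith-Lemli-Opitz syndrome, was at 101.1, 86.59 and 104.4 TPM in siNC and 82.79, 71.11 and 82.26 TPM in siBCAT1. Its groups did not overlap, and its log2 fold change of -0.30 just missed the threshold (95% interval -0.53 to -0.08, limma with Benjamini-Hochberg adjustment, adjusted p = 0.0538). EBP, the sterol isomerase, averaged 109 ± 6.87 and 102 ± 5.23 TPM and overlapped between the groups. The calls of TM7SF2, MSMO1, NSDHL and SC5D were each lost without siNC replicate 1, siNC replicate 3, siBCAT1 replicate 2 or siBCAT1 replicate 3. Those of NSDHL and SC5D were also lost without siBCAT1 replicate 1, and that of SC5D without siNC replicate 2. Over all settings tried their adjusted p (limma with Benjamini-Hochberg adjustment) reached 0.137, 0.0977, 0.115 and 0.109, and their log2 fold changes stayed below 0.

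**Figure D3:**
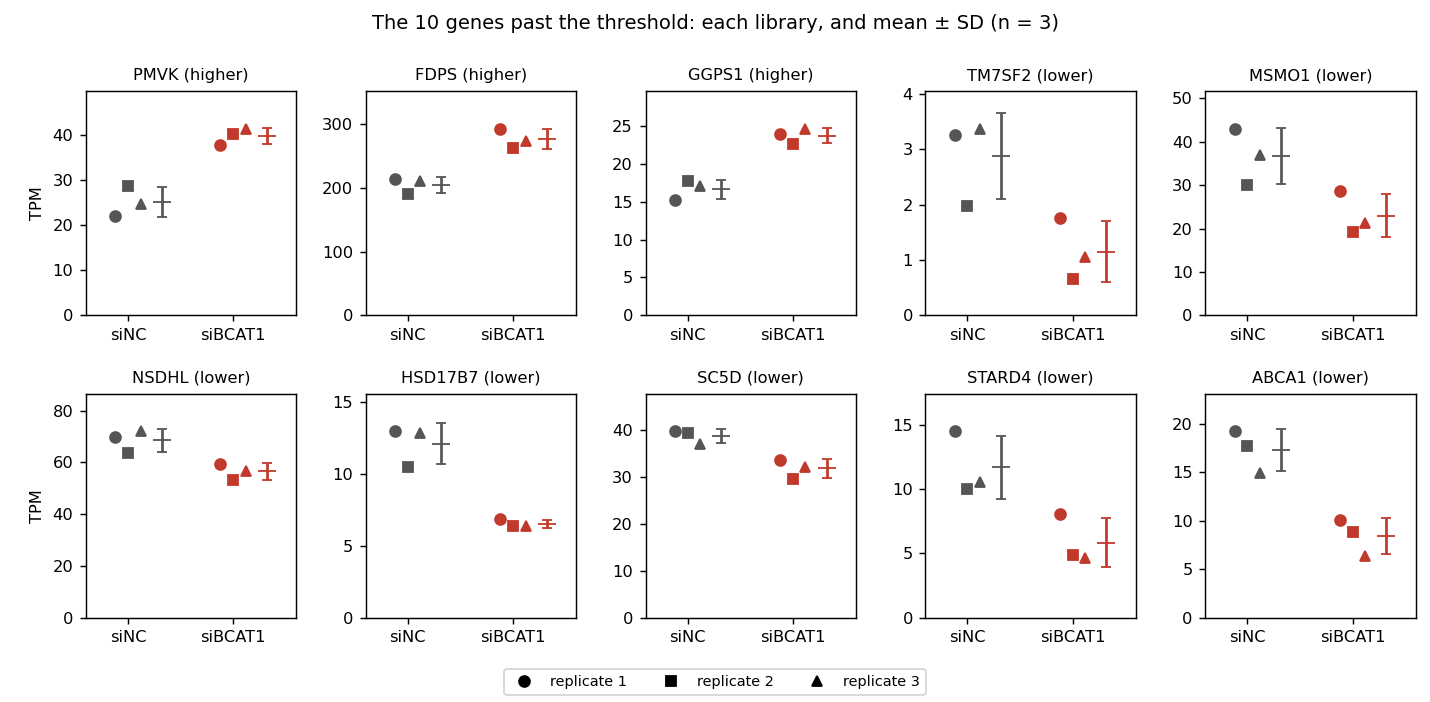
Level in TPM (axes from 0) of the 10 genes that passed the test, with a symbol shape for each replicate, grey for siNC and red for siBCAT1, and the mean with its SD (n = 3) beside each group. In each panel every library of one group lies above every library of the other, with the smallest gaps relative to the level for MSMO1 and NSDHL.

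Genes of this pathway are known to be activated from short promoters in which SREBPs act together with the factors NF-Y and Sp1. The words of those factors were counted on both strands of RefSeq promoters (GRCh38.p14), from 250 bases before to 50 bases after the first start listed for a gene, for the 26 of the 29 genes with an entry. That start can lie away from the start of the gene positions used here, as for IDI1, DHCR7 and LPIN1. Which start these cells use was not tested. CCAAT, the core of an NF-Y site, was in 17 of the 26 (65.4%) and in 35.7% of all 27305 promoters. It was in 6 of the 7 genes that fell, all but ABCA1, in 1 of the 3 that rose, FDPS, and in 10 that were not called. GGGCGG, the core of an Sp1 site, was in 24 of the 26 (92.3%) and in 44.6% of all promoters. This word was in 6 of the 7 genes that fell, in 2 of the 3 that rose and in 16 that were not called. CACGTG was in 5 of the 26 (19.2%) and in 7.43% of all. The sterol element words TCACNCCAC and TCACGCAC were rare, with the first in SREBF2 only, against 1.15% of all promoters, and the second in none of the 26, against 0.535% of all. The 27305 promoters were not limited to genes that passed the expression filter, whereas all 26 genes had passed it, so the shares are not of like sets. A match is a description of letters in this window and no evidence of binding. The 250 bases before the start are shown for the 3 enzymes of C4 demethylation and STARD4, which fell, for FDPS, which rose, and for SREBF2, which holds the sterol element. Capitals mark CCAAT on either strand (ATTGG when on the other) and, in SREBF2, also TCACNCCAC.
HSD17B7 (chr1:162790452-162790701, plus strand): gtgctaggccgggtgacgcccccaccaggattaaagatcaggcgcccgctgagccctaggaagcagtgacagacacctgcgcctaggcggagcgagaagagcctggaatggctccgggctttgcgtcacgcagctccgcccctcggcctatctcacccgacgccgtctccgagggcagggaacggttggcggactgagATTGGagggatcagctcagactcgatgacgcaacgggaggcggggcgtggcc
MSMO1 (chr4:165327419-165327668, plus strand): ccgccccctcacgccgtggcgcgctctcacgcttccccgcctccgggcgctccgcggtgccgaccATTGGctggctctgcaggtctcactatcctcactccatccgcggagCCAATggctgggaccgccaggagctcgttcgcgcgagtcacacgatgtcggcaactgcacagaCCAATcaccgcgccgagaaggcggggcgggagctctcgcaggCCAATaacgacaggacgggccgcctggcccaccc
NSDHL (chrX:152830813-152831062, plus strand): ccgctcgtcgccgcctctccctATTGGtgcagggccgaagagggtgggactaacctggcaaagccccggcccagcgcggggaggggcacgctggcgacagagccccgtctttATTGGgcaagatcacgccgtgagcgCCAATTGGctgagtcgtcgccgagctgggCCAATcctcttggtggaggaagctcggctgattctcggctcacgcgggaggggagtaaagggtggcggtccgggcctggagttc
STARD4 (chr5:111512536-111512785, minus strand): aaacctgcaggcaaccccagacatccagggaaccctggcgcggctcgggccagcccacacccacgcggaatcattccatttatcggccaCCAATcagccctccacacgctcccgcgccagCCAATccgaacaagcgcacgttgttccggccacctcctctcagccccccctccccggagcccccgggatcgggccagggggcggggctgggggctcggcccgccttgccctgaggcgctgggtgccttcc
FDPS (chr1:155308616-155308865, plus strand): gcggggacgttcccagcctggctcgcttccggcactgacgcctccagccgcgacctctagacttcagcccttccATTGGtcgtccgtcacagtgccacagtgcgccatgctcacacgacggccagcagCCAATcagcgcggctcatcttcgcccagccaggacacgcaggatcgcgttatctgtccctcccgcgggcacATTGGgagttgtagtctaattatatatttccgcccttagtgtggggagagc
SREBF2 (chr22:41832855-41833104, plus strand): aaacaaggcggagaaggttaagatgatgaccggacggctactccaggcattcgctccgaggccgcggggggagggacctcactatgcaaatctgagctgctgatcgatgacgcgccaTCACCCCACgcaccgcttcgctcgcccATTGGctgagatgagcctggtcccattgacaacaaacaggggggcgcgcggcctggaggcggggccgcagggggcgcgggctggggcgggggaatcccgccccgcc
MSMO1 held 4 copies of CCAAT within the full window and NSDHL 5, of which a pair overlaps on opposite strands, HSD17B7 and STARD4 held 2 each, and FDPS held 3. In HSD17B7 the other copy lies past the start and is not shown. Copies were thus found in genes of both directions.

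Of the 4 genes of sterol transport, 2 fell (50%, against 10.4% of all genes tested) and none rose (against 16.7%). STARD4 (5:111496033-111512590, minus strand), a soluble carrier that moves cholesterol between membranes and is a known SREBP-2 target, was at 14.52, 10.02 and 10.53 TPM in siNC and 8.08, 4.85 and 4.63 TPM in siBCAT1. The mean fell by 49.9% and the groups did not overlap, with replicate 1 the highest in each (log2 fold change -0.91, SE 0.22, limma with Benjamini-Hochberg adjustment, adjusted p = 0.022). This call was lost with no filter on low values and without siNC replicate 1, siBCAT1 replicate 2 or siBCAT1 replicate 3, with adjusted p (limma with Benjamini-Hochberg adjustment) of up to 0.0745. STARD4-AS1 lies on the opposite strand, and whether strand was used in counting is not stated. ABCA1 (9:104781002-104928237, minus strand), which exports cholesterol to apolipoproteins and is activated by LXR, was at 19.27, 17.7 and 14.96 TPM in siNC and 10.07, 8.85 and 6.4 TPM in siBCAT1. Its log2 fold change was -0.97 (SE 0.17, limma with Benjamini-Hochberg adjustment, adjusted p = 0.0064), and the mean fell by 51.2% with no overlap between the groups.

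NPC1, which carries cholesterol out of lysosomes, was at 57.44, 54.91 and 57.7 TPM in siNC and 71.05, 53.19 and 66.75 TPM in siBCAT1. The siNC libraries were close together, whereas siBCAT1 replicate 2 lay below all of them and the other 2 above, and the difference of 0.15 did not pass the test (95% interval -0.10 to 0.41). MYLIP, the ubiquitin ligase that degrades lipoprotein receptors and is a second LXR target in the set, averaged 6.35 ± 1.09 and 7.04 ± 1.10 TPM. Its log2 fold change of 0.13, with an interval of -0.23 to 0.49, lay on the other side of 0 from that of ABCA1. Neither of the other SREBP targets passed the test. LPIN1, a phosphatidate phosphatase, averaged 11.4 ± 0.999 and 11.1 ± 0.125 TPM, and TMEM97, the sigma-2 receptor that binds NPC1, averaged 29.4 ± 1.85 and 29.1 ± 2.19 TPM. The intervals of their log2 fold changes were -0.25 to 0.19 and -0.22 to 0.19.

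**Figure D4:**
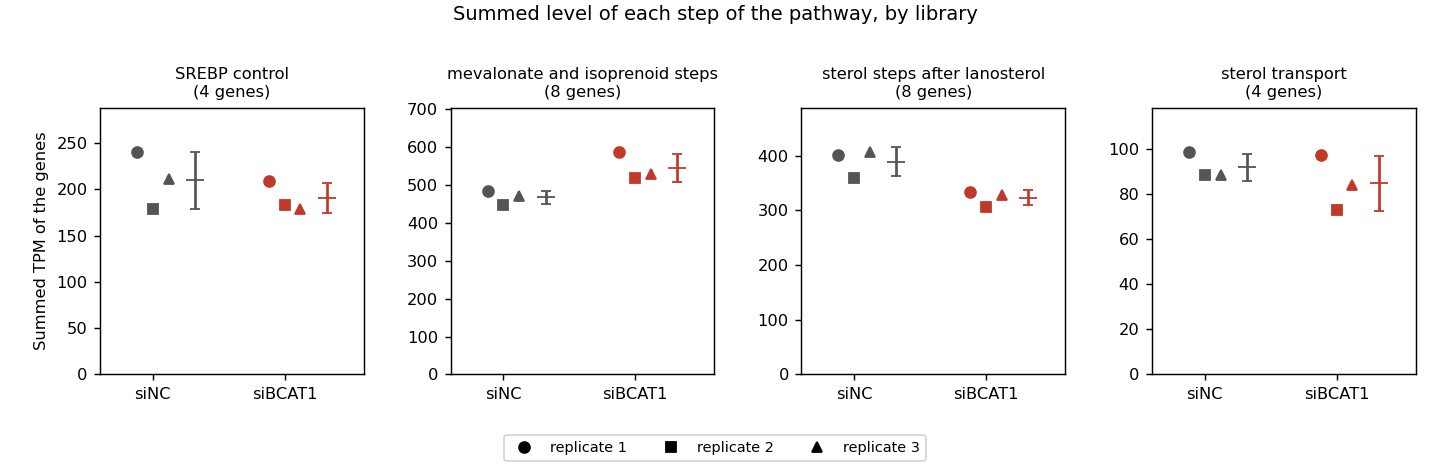
Summed TPM (axes from 0) of the genes of 4 steps of the pathway in each library, with a symbol shape for each replicate and the mean with its SD (n = 3) beside each group. The mevalonate and isoprenoid sum is higher in every siBCAT1 library, which is not so without FDPS (overlapping groups), the sum after lanosterol is lower, and the sums of SREBP control and transport overlap.

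Further genes of the pathway were read from 3 lists. Of 35 partners of the pathway, such as receptors, sterol sensors and their ligases, 31 passed the filter, 6 rose and 9 fell, with a median log2 fold change of -0.10. The rises were 19.35% and the falls 29.03% of the 31, against 16.7% and 10.4% of all genes tested. The largest rises were ERLIN2 (1.34) and ERLIN1 (0.99), a pair of endoplasmic reticulum proteins that bind sterol and restrain SREBP activation, and ACAT1 (0.78), the mitochondrial thiolase. The largest falls were LIPA (-1.88), the lysosomal lipase that frees cholesterol from its esters, VLDLR (-1.03), a lipoprotein receptor, and LRP1 (-0.86), another member of the receptor family. LIPA was at 61.56, 59.0 and 58.47 TPM in siNC and 14.37, 16.46 and 15.58 TPM in siBCAT1, which is a wide gap beside the spread within either group. The 6 adjusted p-values (limma with Benjamini-Hochberg adjustment) were 0.00233, 0.000586, 0.00379, 6.28e-05, 0.00703 and 0.00352 in the order named.

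The other arm of SREBP targets, fatty acid synthesis, had 14 genes, of which 1 rose and 2 fell. These were 7.14% and 14.29% of the list, against 16.7% and 10.4% of all genes tested. ME1, malic enzyme, rose by 0.77 (adjusted p = 0.00188, limma with Benjamini-Hochberg adjustment), while ELOVL5, a fatty acid elongase, was at -0.81 (adjusted p = 0.000267) and ACLY, which supplies cytosolic acetyl-CoA to both pathways, at -0.21 (adjusted p = 0.0331). Their median was -0.22, and the count of falls in this list ranged from 1 to 7 over the settings tried. It was 1 without siNC replicate 1, siNC replicate 3, siBCAT1 replicate 2 or siBCAT1 replicate 3, and 5 without siNC replicate 2. Of 16 enzymes that use isoprenoids, 1 rose (6.25%) and 3 fell (18.75%), against the same shares of all genes tested, with a median of 0.02. ICMT, which methylates prenylated proteins, rose (log2 fold change 0.74, limma with Benjamini-Hochberg adjustment, adjusted p = 0.00137). The 3 that fell were RCE1 (-0.49), the protease that acts just before ICMT, FNTB (-0.30), a subunit of farnesyltransferase, and RABGGTA (-0.30), a subunit of the Rab prenyltransferase, with adjusted p (limma with Benjamini-Hochberg adjustment) of 0.0165, 0.0351 and 0.0459. In this list no gene fell without siNC replicate 1 or without siBCAT1 replicate 1, and 1 fell without siNC replicate 2, siBCAT1 replicate 2 or siBCAT1 replicate 3.

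**Figure D5:**
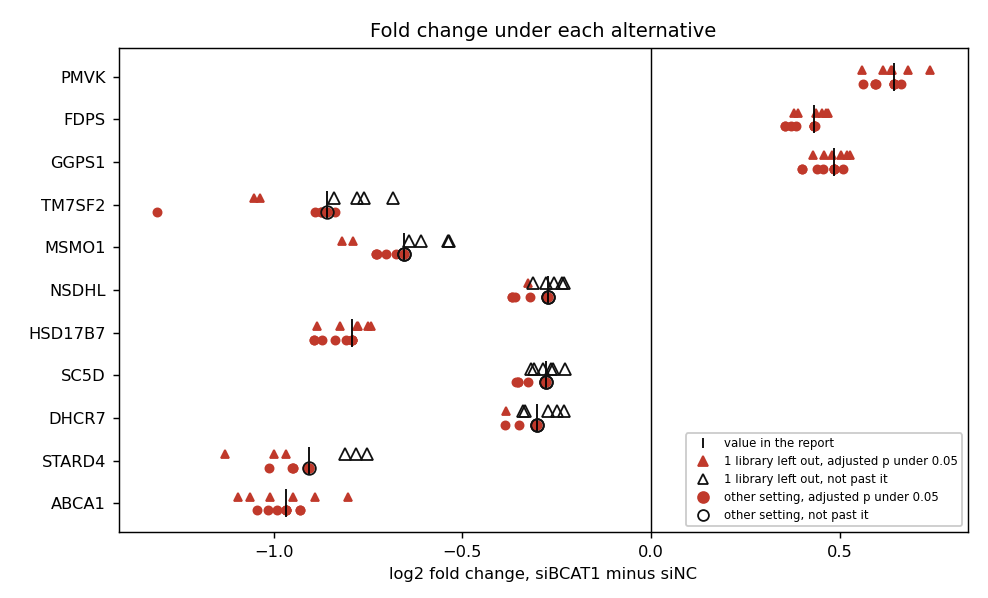
Log2 fold change (siBCAT1 minus siNC) of the 10 genes that passed the test and of DHCR7 under each alternative setting, with triangles for fits without 1 library, circles for other settings and filled red symbols where the adjusted p was under 0.05. No symbol lies on the other side of 0, and PMVK, FDPS, GGPS1, HSD17B7 and ABCA1 have filled symbols throughout.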

How the data were processed

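The 6 RNA-seq libraries of 67R cells were grouped and numbered by their labels. The authors trimmed reads with fastp, mapped them to GRCh38 with HISAT2 and assembled transcripts with StringTie (from the submitters' processing notes, versions and annotation not given in the sources used here), from stranded mRNA libraries. They deposited TPM values per gene and library with 2 decimals, read as TPM from their sums of 992512 to 995593. Here log2(TPM + 1) of the 14286 genes averaging 1 TPM or more was compared by two-sided limma tests (version 3.58.1, R 4.3.3) with a variance trend and Benjamini-Hochberg adjustment. Positions, overlaps and 3′ UTRs came from GENCODE 29. No 2 libraries were duplicates, since the closest had equal values in 1.42% of the tested genes. Fits were tested on simulated data. The members and lists were chosen with earlier results of these data known. All 29 genes and BCAT1 were named, with every called gene of another list of at most 6 called genes, or otherwise the 3 largest rises and 3 largest falls. ERG28 and LBR were named outside this rule, after their values were seen. Alternatives were no filter, a filter at 5 TPM, a pseudocount of 0.1, a replicate block, median-ratio and quantile scaling, loess adjustment (span 0.5) for length and GC content with and without the block, no variance trend, a minimum log2 fold change of 0.5, and each library left out. Tables and plots were made in Python 3.11.15 (pandas 2.3.3, matplotlib 3.10.9).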

Additional observations from a re-analysis of the deposited data

How the results depend on the processing

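The count of the 29 genes called lower was 2 with no filter on low values and 4 without a variance trend, and 2 to 7 when single libraries were left out. The count called higher was 1, PMVK, with a minimum log2 fold change of 0.5. Over all genes, 1270 were higher and 887 lower with that minimum, 960 were lower with no filter, and leaving out single libraries gave 1505 to 2320 higher and 855 to 1470 lower. In the fatty acid list, 2 genes rose under the GC and length correction, and falls numbered 1 with no filter, 4 with a mean of at least 5 TPM, 6 under median-ratio scaling, 7 under quantile normalization, 6 under the GC and length correction, alone or with the replicate block, and 1 to 5 with single libraries left out. Of the isoprenoid users, 1 fell with no filter, 1 without a trend, and 0 to 2 with single libraries left out. The sign turned for genes near 0. The log2 fold change was 0.0263 for SCAP, 0.0194 for MVD, -0.0186 for FDFT1 and -0.0607 for SQLE under the GC and length correction, with and without the block, and -0.01995 for FDFT1 and -0.0776 for SQLE under quantile and -0.0398 for SQLE under median-ratio scaling. With single libraries left out it ran from -0.226 to 0.0204 for SREBF1, -0.0703 to 0.0373 for SCAP, -0.164 to 0.0980 for MVD, -0.0359 to 0.181 for FDFT1, -0.0752 to 0.0803 for SQLE, -0.0481 to 0.0219 for CYP51A1, -0.0925 to 0.0238 for LPIN1 and -0.0762 to 0.0274 for TMEM97. DHCR7 was called lower under 8 of the 15 other fits. The causes were not tested.

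Neither the labels nor the study's methods state a pairing of the replicate numbers, so the main fit had no block. Whether same-numbered libraries were prepared together is unknown. The deviations of same-numbered libraries correlated at 0.08, 0.10 and 0.12, each highest for the library's own number. Those of differently numbered libraries correlated at -0.08 to -0.01. This is a hint of pairing from the data and not the design. With the replicate block, 3 of the 29 genes were called higher and 8 lower (DHCR7 added), 2773 genes were higher and 1795 lower over all, and 7 of the fatty acid genes fell.

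TPM values hold no depth, so no limit from counting can be given for weak genes such as TM7SF2, and 3 libraries a group leave intervals of about the size of the smaller differences.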

Other observations

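Within both groups, replicate 2 tended to hold the lowest levels of these genes. siNC replicate 2 was the lowest of its group for 19 of the 29 genes, against 36.3% of all genes tested, and siBCAT1 replicate 2 also for 19 of the 29, against 32.7%. Replicate 1 was the highest of its group for 17 of the 29 genes in siNC (42.2% of all genes tested) and for 21 of the 29 in siBCAT1 (44.8%). SREBF2, INSIG1, MSMO1 and STARD4 all had their highest siNC value in replicate 1, and INSIG1 and MSMO1 had their lowest value of each group in replicate 2. The median log2 deviation of the 29 genes from the group mean was 0.11 in siNC replicate 1 and -0.11 in siNC replicate 2, and 0.12 and -0.09 in siBCAT1 replicates 1 and 2, while over all genes tested it lay between -0.03 and 0.04. The labels name no batch for the replicate numbers.

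The 3′ UTRs of the 29 genes were also read for the words that pair with the seeds of the BCAT1 siRNAs of the study's methods, as a description. For the siRNA that the methods name siBCAT1, the word TTGAGCA was in 1 of the 29 genes, LPIN1, which was not called, and in 11.4% of 11671 tested genes with a 3′ UTR. Its shorter form TGAGCA was in 9 of the 29, against 33.1%. Of these 9, TM7SF2 and ABCA1 fell, GGPS1 rose and the others were not called. The words of the other siRNA of the methods, AGACAAT and GACAAT, were in 4 and 7 of the 29, against 8.98% and 20.8%. STARD4, which fell, held both, GGPS1, which rose, held GACAAT, and the other holders were not called.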
